A study of Mus musculus with 6 samples.

Results

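Syndecans and glypicans are the cell-surface heparan sulfate proteoglycans, and their transcripts were examined in sorted mouse muscle satellite cells with and without an intact Lmna gene. The group comprised 9 genes chosen by name, the syndecans Sdc1, Sdc2, Sdc3 and Sdc4 and the glypicans Gpc1, Gpc2, Gpc3, Gpc4 and Gpc6, of 39059 genes counted. All 9 were found in the files by their Ensembl identifiers. Total RNA from freshly sorted hind-limb satellite cells was sequenced at postnatal day 19 on the C57BL/6J background, in 3 libraries labelled Lmna HOM, of genotype Lmna Δ8-11 -/-, and 3 labelled Lmna WT, of genotype Lmna Δ8-11 +/+. Lmna encodes lamins A and C of the nuclear lamina. The deletion allele is carried in every cell of the animal rather than in the satellite cells alone, so the neighbouring cells of the muscle carry it too. The labels mention 3 mice for a genotype but do not say which animal gave which library, so p-values reflect only the spread between samples, part of which may be technical.

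Syndecans are transmembrane core proteins with a short cytoplasmic tail, and glypicans are globular core proteins tethered to the membrane by a glycosylphosphatidylinositol (GPI) anchor. Both carry heparan sulfate chains, long sulfated sugars that hold growth factors such as FGFs, HGF and Wnts at the cell surface and present them to their receptors. In mouse muscle, Sdc3 and Sdc4 are known as surface markers of satellite cells, the stem cells that lie against the muscle fibre, and Sdc4 is known as a coreceptor for fibronectin. Glypicans are known as modulators of Wnt, Hedgehog and FGF signals.

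Libraries held 6613636 to 9552751 reads assigned to genes. Lmna itself, counted over all its exons including those outside the deletion, stood at 374 to 449 CPM (counts of a gene scaled to a common library total, here the gene reads adjusted by TMM) in Lmna HOM libraries and at 840 to 1054 CPM in Lmna WT libraries. Lmna HOM replicate 2, Lmna WT replicate 2 and Lmna WT replicate 3 held reads from Y-linked genes, so each genotype mixed libraries with and without a Y chromosome. Lmna HOM replicate 2 and Lmna WT replicate 2 also held more reads of the ribosomal-repeat transcript Gm42418, at 1.303% and 1.39% of gene reads, while the other 4 libraries had 0.0914% to 0.180%.

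The family was mostly lower in Lmna HOM cells. Of the 8 members with enough reads to test, 6 fell, 1 rose and 1 did not pass the test. All 4 tested glypicans were among those that fell. Gpc3 and Gpc6 kept the call in all 14 alternative fits, while Gpc4 lost it in 10 and Gpc1 in 4. The largest falls were those of Gpc3, at 47.0% of the Lmna WT mean, Sdc1, at 55.1%, and Gpc6, at 56.6%, while Sdc3 rose to 131% and Sdc4, the most abundant member, stood at 86.3%. Calls are from edgeR's quasi-likelihood test over 14099 genes at a Benjamini-Hochberg adjusted p under 0.05. Over all genes tested, 21.1% were called, 9.67% as higher and 11.5% as lower, so the 87.5% of tested members called stands beside a background that is itself broad. All Lmna HOM libraries lay below all Lmna WT libraries for 6 members and above them for 1, against 20.5% and 20.2% of all genes tested (40.7% in either direction). With 1 library left out the number of members called was 3 without Lmna HOM replicate 1, Lmna WT replicate 1 or Lmna WT replicate 2, 2 without Lmna HOM replicate 3, 5 without Lmna WT replicate 3 and 6 without Lmna HOM replicate 2. The median log2 fold change (Lmna HOM minus Lmna WT) was -0.56 over the 8 members and -0.004 over all genes tested. These are bulk measurements, in which fewer cells of a type and less RNA per cell cannot be told apart.

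**Figure D1:**
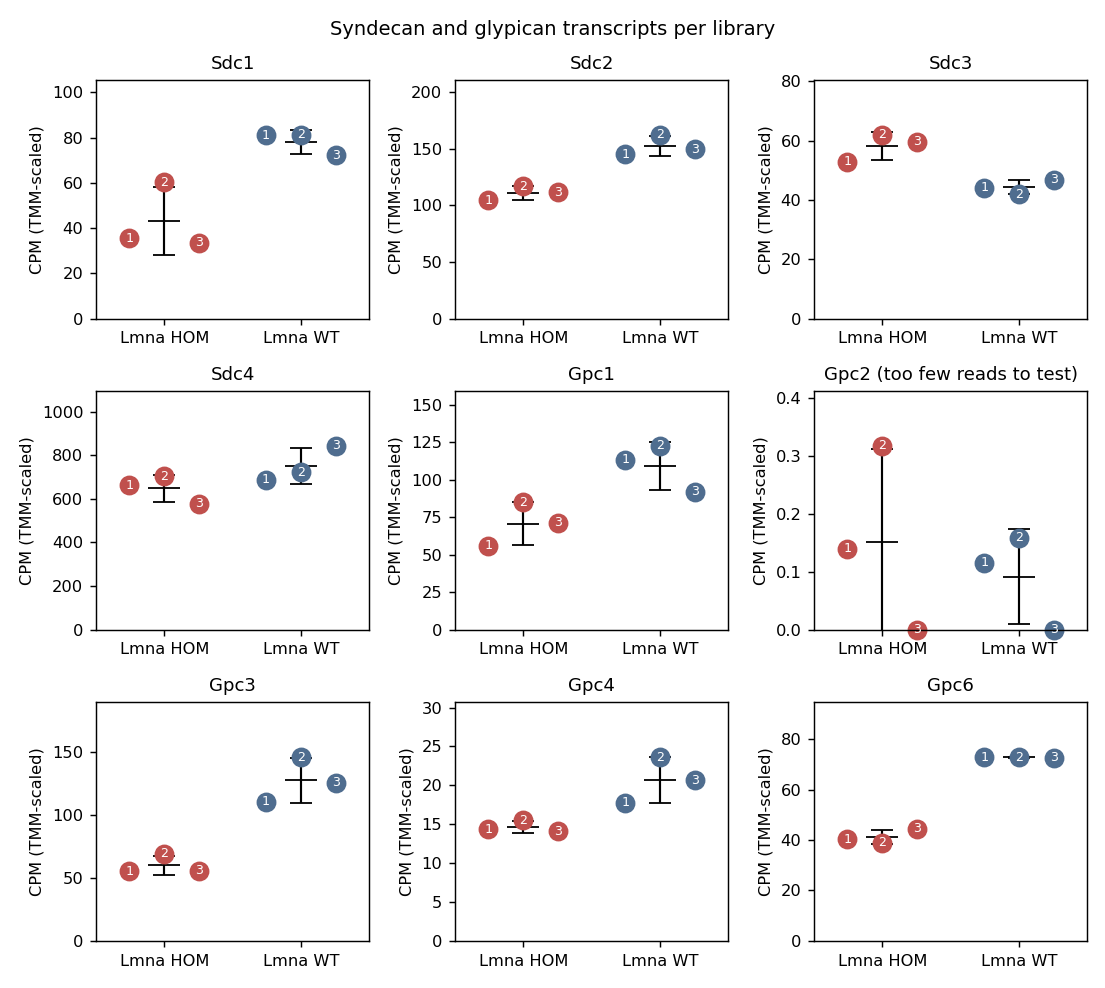
Level of each member in CPM (on TMM-scaled totals; each panel has its own axis from 0) in the 3 Lmna HOM libraries (red) and the 3 Lmna WT libraries (blue). Numbered points are replicates, and bars are the mean and SD of 3 libraries. The groups are apart for every member but Sdc4 and Gpc2, and Sdc3 is the 1 tested member that is higher in Lmna HOM.

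The stretches of sequence before Sdc3, the member that rose, and Gpc3, the member that fell furthest, are shown because these genes mark the ends of the family's range. They are the 250 bases upstream of the RefSeq start on GRCm38.p6, at chr4:130792287-130792536 on the plus strand for Sdc3 and at chrX:52613975-52614224 on the minus strand for Gpc3, written 5′ to 3′ on the gene's own strand. Capitals mark GGGCGG or its reverse complement CCGCCC, the GC box bound by Sp factors.
Sdc3: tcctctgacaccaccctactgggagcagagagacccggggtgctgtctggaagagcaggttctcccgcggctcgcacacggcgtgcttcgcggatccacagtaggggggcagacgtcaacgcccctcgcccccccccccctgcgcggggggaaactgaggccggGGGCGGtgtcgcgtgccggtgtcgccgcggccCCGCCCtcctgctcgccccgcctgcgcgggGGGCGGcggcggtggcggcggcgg
Gpc3: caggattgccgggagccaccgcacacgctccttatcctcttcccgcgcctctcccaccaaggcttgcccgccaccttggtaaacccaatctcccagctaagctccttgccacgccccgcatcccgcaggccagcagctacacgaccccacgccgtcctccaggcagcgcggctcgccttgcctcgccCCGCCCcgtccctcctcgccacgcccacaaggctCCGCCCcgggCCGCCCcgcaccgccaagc
Each window held 3 GC boxes. Neither held the TATA box (TATAAA) on either strand, nor the E-box CANNTG, of which the myogenic form CAGCTG is a case. GC content was 76.4% before Sdc3 and 71.6% before Gpc3, against a median of 52.4% over 32817 RefSeq windows of that length. On either strand, the GC box was in 32.7% of those windows, the TATA box in 12.4%, the general E-box in 66.2% and its myogenic form in 13.0%. Among the other members, RefSeq windows were found for Sdc1, with 3 GC boxes, Sdc4, with 4, Gpc2, with 3, and Gpc4, with 1. The search found these letters alike before the member that rose and the member that fell, and a match is a description of the letters, not of a bound site.

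Among the syndecans, Sdc4 (ENSMUSG00000017009, chromosome 2, 164424247 to 164443887, minus strand, GRCm38) was the most abundant member of the family. It stood at 662, 703 and 578 CPM in Lmna HOM replicates 1, 2 and 3 and at 687, 721 and 842 CPM in Lmna WT replicates 1, 2 and 3. The groups overlapped, since Lmna HOM replicate 2 lay above Lmna WT replicate 1. Its log2 fold change was -0.21 (SE 0.14, edgeR adjusted p = 0.308), with a 95% interval of -0.52 to 0.10. That interval excludes a fall as deep as that of Gpc3 or Gpc6 but not a moderate fall, so Sdc4 is not shown to be equal between genotypes.

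Sdc3 (ENSMUSG00000025743, chromosome 4, 130792537 to 130826319, plus strand), the other syndecan known from satellite cells, was the member called higher in Lmna HOM. It stood at 52.8, 62.0 and 59.6 CPM in Lmna HOM libraries and at 44.1, 42.0 and 46.8 CPM in Lmna WT libraries. Every Lmna HOM library lay above every Lmna WT library, by a small margin. In the test Sdc3 had a log2 fold change of 0.39 (SE 0.11, edgeR adjusted p = 0.0360). This call was a narrow one, lost in 10 of the 14 alternatives. Of the fits that left out a library, only the one without Lmna HOM replicate 1 kept the call (edgeR adjusted p = 0.0414). The losses included DESeq2 (adjusted p = 0.0646) and an edgeR fit with a term for Y-linked reads (adjusted p = 0.0637). The sign was positive in all 14 alternatives, with a log2 fold change of 0.31 to 0.46. Antisense transcripts overlap 6.93% and 0.80% of the exonic length of Sdc3, and they held 2 reads and 0 reads over the 6 libraries.

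Sdc1 (ENSMUSG00000020592, chromosome 12, 8771323 to 8793715, plus strand) is best known from epithelia and plasma cells and is also made by myoblasts. It stood at 35.4, 60.3 and 33.5 CPM in Lmna HOM libraries and at 81.0, 81.2 and 72.1 CPM in Lmna WT libraries. Lmna HOM replicate 2 lay between the other Lmna HOM libraries and the Lmna WT libraries. The log2 fold change was -0.85 (SE 0.20, edgeR adjusted p = 0.0158) and -1.18 without Lmna HOM replicate 2. The adjusted p was 0.0623 without Lmna HOM replicate 1, 0.0575 without Lmna HOM replicate 3, 0.0552 without Lmna WT replicate 1 and 0.0531 without Lmna WT replicate 2. Among markers of the cells best known for Sdc1, the epithelial keratins Krt5, Krt14 and Krt18 and the B and plasma cell genes Cd79a and Jchain held too few reads to test, and Krt8 held none. The 1 tested marker of each list fell, Cdh1 for epithelia and Ighm for B cells, and their part in the fall of Sdc1 was not tested.

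Sdc2 (ENSMUSG00000022261, chromosome 15, 32920723 to 33034935, plus strand), the syndecan of mesenchymal cells, fell less and more evenly. It stood at 104, 117 and 111 CPM in Lmna HOM libraries and at 145, 162 and 149 CPM in Lmna WT libraries, so that the groups were well apart with little spread in either. Sdc2 thus had a log2 fold change of -0.46 (SE 0.11, edgeR adjusted p = 0.0161). The adjusted p was 0.0678 without Lmna HOM replicate 1 and 0.0613 without Lmna HOM replicate 3.

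Gpc3 (ENSMUSG00000055653, chromosome X, 52272426 to 52613950, minus strand), a growth-restraining glypican that binds Hedgehog and is mutated in the human Simpson-Golabi-Behmel overgrowth syndrome, fell the furthest. It stood at 55.1, 68.9 and 55.4 CPM in Lmna HOM libraries and at 110.4, 146 and 126 CPM in Lmna WT libraries. The highest Lmna HOM library lay well below the lowest Lmna WT library. This gave a log2 fold change of -1.09 (SE 0.14, edgeR adjusted p = 0.0012). Gpc3 passed the test in each of the 14 alternatives, with a log2 fold change of -0.98 to -1.20.

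Gpc6 (ENSMUSG00000058571, chromosome 14, 116925315 to 117976544, plus strand), whose human counterpart is mutated in a form of short-limbed dwarfism, also fell, with little spread among the Lmna WT libraries. It stood at 40.3, 38.9 and 44.5 CPM in Lmna HOM libraries and at 72.9, 72.8 and 72.7 CPM in Lmna WT libraries. The log2 fold change was -0.82 (SE 0.11, edgeR adjusted p = 0.0013), and it too passed in all 14 alternatives. Gpc5, a glypican outside the group chosen here that lies beside Gpc6 on chromosome 14, held 3 reads in Lmna HOM and 5 reads in Lmna WT libraries.

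Gpc1 (ENSMUSG00000034220, chromosome 1, 92831645 to 92860779, plus strand), a glypican linked to FGF2 binding on muscle cells, stood at 55.9, 85.0 and 71.3 CPM in Lmna HOM libraries and at 113, 122 and 91.8 CPM in Lmna WT libraries. The gap between Lmna HOM replicate 2 and Lmna WT replicate 3 was narrower than the spread within either group. Its log2 fold change was -0.62 (SE 0.16, edgeR adjusted p = 0.0244). The adjusted p was 0.0815 without Lmna HOM replicate 1, 0.0696 without Lmna HOM replicate 3, 0.0819 without Lmna WT replicate 1 and 0.0872 without Lmna WT replicate 2. Ankmy1 overlaps 18.9% of its exonic length on the opposite strand and held 28 reads over the 6 libraries.

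Gpc4 (ENSMUSG00000031119, chromosome X, 52053021 to 52165252, minus strand), a close relative of Gpc6 that is known to modulate FGF and Wnt signals, was the lowest of the members tested in CPM. It stood at 14.4, 15.5 and 14.1 CPM in Lmna HOM libraries and at 17.8, 23.6 and 20.6 CPM in Lmna WT libraries. The log2 fold change was -0.49 (SE 0.15, edgeR adjusted p = 0.0480), at the edge of the threshold. Of the fits that left out a library, only the one without Lmna HOM replicate 2 kept the call (adjusted p = 0.0450), and it was lost in DESeq2 (adjusted p = 0.0971) and with the Y-linked term (adjusted p = 0.130). The sign was negative in all 14 alternatives. Gpc3 and Gpc4 are X-linked and each genotype mixed libraries with and without Y-linked reads. With that term the log2 fold change of Gpc3 was -0.99 (adjusted p = 0.0014) and that of Gpc4 -0.41.

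Gpc2 (ENSMUSG00000029510, chromosome 5, 138273655 to 138280005, minus strand), a glypican of the developing nervous system, was barely detected. It held 1, 3 and 0 reads in Lmna HOM libraries and 1, 1 and 0 reads in Lmna WT libraries, and was not tested. A floor of 3 reads in all libraries of a genotype equals 0.123 CPM in Lmna HOM and 0.131 CPM in Lmna WT, for counting error only, and no difference was detectable there. The predicted gene Gm43720 shares 55.6% of its exonic length on the same strand, so its count is uncertain.

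**Figure D2:**
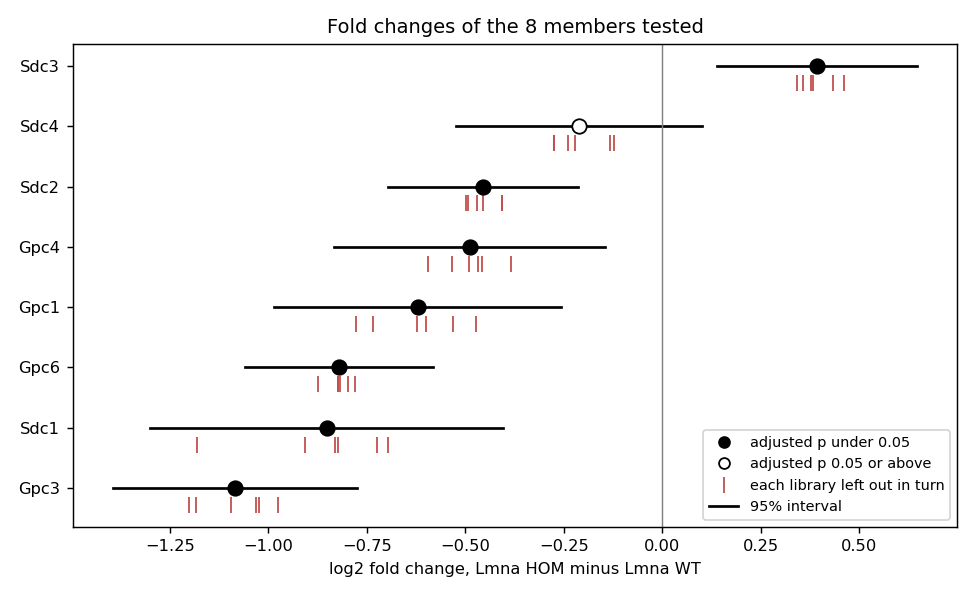
Log2 fold change (x axis, Lmna HOM minus Lmna WT) of the 8 members tested, with its 95% interval. Filled points passed an adjusted p under 0.05, and red ticks are the values with each library left out in turn. Sdc3 lies right of 0 at 0.39 and the other members left of it, down to -1.09 for Gpc3; the interval of Sdc4 spans 0.

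Levels were compared between members only per exonic length, as RPKM (CPM per kb of exon, on the union of the gene's annotated exons). On this scale Sdc4 stood at 254 ± 25.04 RPKM in Lmna HOM and 294 ± 31.99 RPKM in Lmna WT libraries (SD, n = 3 each), far above every other member. In Lmna HOM libraries Sdc2 followed at 31.4 ± 1.81 RPKM, Gpc3 at 22.2 ± 2.94, Gpc1 at 13.7 ± 2.82, Sdc1 at 11.3 ± 3.92, Sdc3 at 9.71 ± 0.79, Gpc6 at 6.42 ± 0.45 and Gpc4 at 5.53 ± 0.29. The ranges of Gpc1 and Sdc1 overlapped, as did those of Sdc1 and Sdc3, and the other neighbours in that order did not. In Lmna WT libraries Gpc3 followed Sdc4 at 47.3 ± 6.59 RPKM, then Sdc2 at 43.2 ± 2.52, Gpc1 at 21.2 ± 3.05, Sdc1 at 20.5 ± 1.354, Gpc6 at 11.3 ± 0.02, Gpc4 at 7.80 ± 1.11 and Sdc3 at 7.40 ± 0.40. There Gpc3 and Sdc2 overlapped, as did Gpc1 and Sdc1, and Gpc4 and Sdc3. Sdc3 lay above Gpc6 and Gpc4 per length in each Lmna HOM library, while in Lmna WT libraries it lay below Gpc6 in each and its range overlapped that of Gpc4.

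The make-up of the family, which follows from the member levels given above, also differed between the genotypes in these libraries. The summed glypican level was 43.0, 54.1 and 46.7 RPKM in Lmna HOM libraries and 81.0, 98.2 and 83.6 RPKM in Lmna WT libraries, so the Lmna HOM mean was 54.7% of the Lmna WT mean. The summed syndecan level was 308, 335 and 277 RPKM in Lmna HOM libraries and 340 (339.6), 357 and 399.7 RPKM in Lmna WT libraries, which put the Lmna HOM mean at 83.9% of the Lmna WT mean. Scaled as TPM, to the sum over all genes, the change of the summed syndecan level was -25.0% in place of -16.1%. Glypicans made up 13.5 ± 1.12% of the summed family level in Lmna HOM and 19.4 ± 2.13% in Lmna WT libraries. Sdc4 made up 71.7 ± 2.16% of it in Lmna HOM and 64.9 ± 3.20% in Lmna WT libraries, and the groups did not overlap for either share.

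Within the glypicans the share of Gpc3 was 46.4 ± 1.92% in Lmna HOM and 53.9 ± 2.84% in Lmna WT libraries, while that of Gpc4 was 11.6 ± 0.90% in Lmna HOM and 8.89 ± 0.55% in Lmna WT libraries. Within the syndecans the share of Sdc3 was 3.18 ± 0.37% in Lmna HOM and 2.03 ± 0.12% in Lmna WT libraries, and that of Sdc1 was 3.64 ± 0.94% in Lmna HOM and 5.65 ± 0.81% in Lmna WT libraries. The ratio of Sdc4 to Sdc3 was 29.5, 26.7 and 22.8 in Lmna HOM libraries and 36.7, 40.3 and 42.3 in Lmna WT libraries. The ratio of Gpc3 to its X-linked neighbour Gpc4 was 3.78, 4.37 and 3.88 in Lmna HOM libraries and 6.12, 6.08 and 6.00 (5.998) in Lmna WT libraries. Each of these shares, sums and ratios was apart between the genotypes, by the narrowest margin for the share of Sdc1, at 3.02 to 4.72% in Lmna HOM and 4.74 to 6.26% in Lmna WT libraries. Each gave p = 0.1 in an exact two-sided permutation test, the smallest that 3 against 3 libraries allow (adjusted p = 0.136 over the 19 such quantities computed). None could therefore pass 0.05. The other shares overlapped between the genotypes. Sdc4 made up 82.9 ± 1.42% of the syndecan level in Lmna HOM and 80.5 ± 1.96% in Lmna WT libraries (exact permutation p = 0.3, n = 3 each), and Sdc2 made up 10.3 ± 0.96% in Lmna HOM and 11.9 ± 1.16% in Lmna WT libraries (exact permutation p = 0.2). Among glypicans the share of Gpc1 was 28.4 ± 2.84% in Lmna HOM and 24.2 ± 2.89% in Lmna WT libraries (exact permutation p = 0.2), and that of Gpc6 was 13.5 ± 2.03% in Lmna HOM and 13.0 ± 1.31% in Lmna WT libraries (exact permutation p = 0.6). The share of Gpc2, which rests on 4 reads in Lmna HOM and 2 reads in Lmna WT libraries, gave p = 0.4 in the same exact test. Ratios within a library do not depend on how the totals were scaled.

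**Figure D3:**
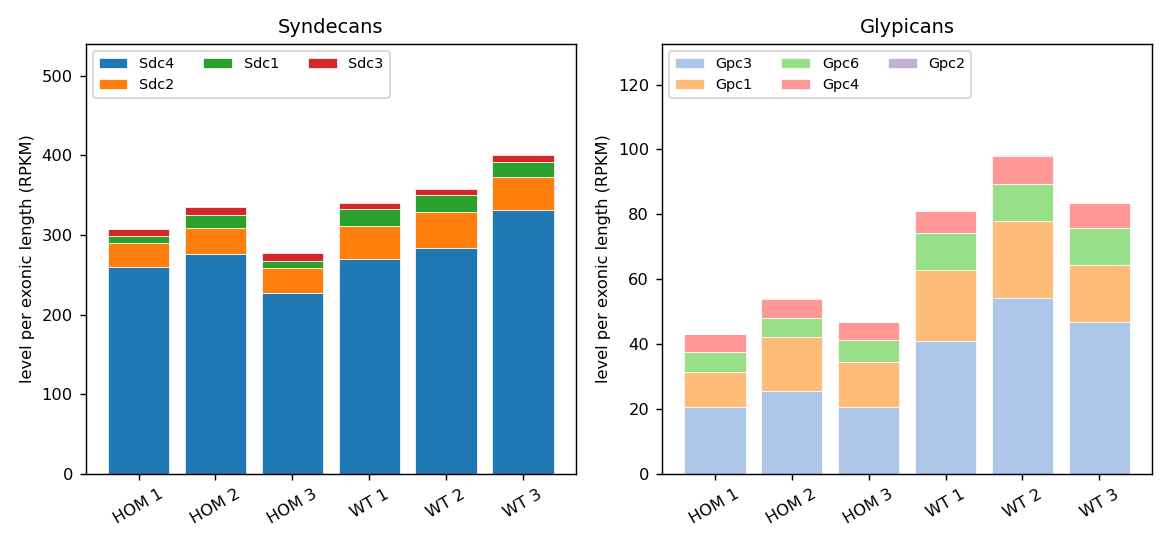
Level per exonic length (RPKM) of the syndecans (left) and glypicans (right) in each library, stacked by member, with Lmna HOM libraries left of Lmna WT libraries and separate axes from 0. Sdc4 fills most of each syndecan bar, and the glypican bars of Lmna HOM libraries reach 43.0 to 54.1 RPKM against 81.0 to 98.2 RPKM in Lmna WT libraries.

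Genes whose pattern over the 6 libraries was most like that of a member were sought among 9054 tested genes averaging 10 CPM or more. Genes without a symbol or with a predicted-gene name (Gm or Rik) were left out of those 9054. Likeness was the root mean square difference of log2(CPM + 1) after centring each gene on its mean. For Sdc4 the most alike were Wwtr1, the gene of the transcriptional coactivator TAZ, at a difference of 0.02, with Ttc9 and Zfyve9 at 0.03 each. For Sdc3 they were Tmbim1 at 0.04, Irs2 at 0.05 and Slc2a8 at 0.06. For Gpc3, the most abundant glypican per length, they were Nsdhl at 0.03, Smim10l1 at 0.08 and Prrg1 at 0.09. The measure describes these 6 libraries only, and no test was made of it.

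Genes linked to the building, editing, shedding and binding of these proteoglycans were examined in 10 lists. Of 158 such genes tested, 10 rose and 24 fell, or 21.5%, which is close to the 21.1% of all genes tested. The median log2 fold change was -0.11.

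Few of the enzymes that make heparan sulfate chains were called. Of 12 enzymes of the linker and the chain, 0 rose and 1 fell, Extl2, a glycosyltransferase that acts on the linker, at 14.1 ± 0.27 CPM in Lmna HOM and 20.2 ± 1.17 CPM in Lmna WT libraries (log2 fold change -0.52, SE 0.14, edgeR adjusted p = 0.0253). Extl2 did not pass in 9 of the 14 alternatives. The median of that list was -0.14. Of 10 tested enzymes of sulfation and epimerisation, 0 rose and 1 fell (median -0.14). That gene was Hs6st2, a 6-O-sulfotransferase, at 2.93, 14.9 and 4.70 CPM in Lmna HOM libraries and at 38.8, 55.0 and 42.5 CPM in Lmna WT libraries (log2 fold change -2.54, SE 0.43, edgeR adjusted p = 0.0039). Lmna HOM replicate 2 was the highest of the Lmna HOM libraries, and without it the log2 fold change was -3.56.

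Hs6st2 lies on chromosome X at 51387212 to 51681856, on the minus strand like Gpc4 and Gpc3 and next to them among the genes tested. The end of Hs6st2 and the start of Gpc4 are 371 kb apart, and Gpc4 and Gpc3 are 107 kb apart. Of the 9 annotated genes from Hs6st2 to Gpc3, these 3 were tested and all fell, while the other 6 held 3 reads in all. The stretch was singled out after its values were seen.

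For the supply of sulfate and sugar donors, 1 of 9 genes rose and 2 fell (median -0.12). Both synthases of the sulfate donor PAPS moved in opposite directions. Papss1 stood at 63.2 ± 7.0004 CPM in Lmna HOM and 103 ± 10.6 CPM in Lmna WT libraries (log2 fold change -0.71, SE 0.12, edgeR adjusted p = 0.0046), and Papss2 at 23.2 ± 1.62 CPM in Lmna HOM and 11.9 ± 4.21 CPM in Lmna WT libraries (log2 fold change 0.95, SE 0.23, edgeR adjusted p = 0.0179). Slc35b2, the Golgi transporter of PAPS, fell as well, at -0.68 (SE 0.14). Of 11 genes that edit or degrade the chains, 1 fell, the heparanase Hpse (median -0.10). Hpse was at 1.09 ± 0.22 CPM in Lmna HOM and 4.03 ± 0.89 CPM in Lmna WT libraries, a low level (log2 fold change -1.90, SE 0.33). Of 15 genes of chondroitin sulfate, the alternative chain, 0 rose and 2 fell, Dse at -0.64 (SE 0.15) and Chsy1 at -0.56 (SE 0.14), with a median of -0.20.

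Among genes linked to shedding and release of the core proteins from the surface, 1 of 15 rose and 5 fell (median -0.15). The list held convertases and inhibitors of metalloproteinases as well as enzymes that cut the core proteins. Adam17, a known syndecan sheddase, stood at 69.8 ± 9.19 CPM in Lmna HOM and 109 ± 3.67 CPM in Lmna WT libraries (log2 fold change -0.64, SE 0.12, edgeR adjusted p = 0.0059), Mmp15, a membrane-bound metalloproteinase, fell by 0.76 on the log2 scale (SE 0.18) and Pcsk5, a proprotein convertase, by 0.74 (SE 0.17). The member that rose was Timp1, an inhibitor of metalloproteinases, at 13.1 ± 2.03 CPM in Lmna HOM and 5.27 ± 1.47 CPM in Lmna WT libraries (log2 fold change 1.32, SE 0.25, edgeR adjusted p = 0.0057).

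Of 17 partners of the syndecan cytoplasmic tail, 2 rose and 0 fell (median 0.07). Prkca, the protein kinase C that binds the Sdc4 tail, stood at 70.7, 43.1 and 52.2 CPM in Lmna HOM libraries and at 27.9, 21.2 and 27.3 CPM in Lmna WT libraries, apart in every library (log2 fold change 1.11, SE 0.19, edgeR adjusted p = 0.0040). Dnm2, a dynamin of endocytosis, had a log2 fold change of 0.40 (SE 0.11). Of 25 genes that attach and remodel the GPI anchor of glypicans, 0 rose and 3 fell (median 0.02). They were Pigk, a transamidase subunit, at -0.64 (SE 0.13), Pigp at -0.71 (SE 0.15) and Pgap1 at -0.57 (SE 0.13). Pigp overlaps the abundant Ttc3 over 16.4% of its exonic length on the opposite strand. No source used here states whether counting took account of strand.

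Of 9 other heparan sulfate proteoglycans tested, 2 rose and 1 fell (median 0.08). Spock2, a secreted testican, stood at 43.4 ± 4.81 CPM in Lmna HOM and 16.2 ± 3.53 CPM in Lmna WT libraries (log2 fold change 1.42, SE 0.17, edgeR adjusted p = 0.00094), while its relative Spock3 fell on few reads, at 0.61 ± 0.19 CPM in Lmna HOM and 3.16 ± 0.89 CPM in Lmna WT libraries (log2 fold change -2.34, SE 0.40). Col18a1, a basement membrane collagen, rose at 0.46 (SE 0.15, edgeR adjusted p = 0.0485) and did not pass in 8 of the 14 alternatives. Of 35 tested genes listed as ligands and receptors linked to heparan sulfate, 3 rose and 8 fell (median -0.31). Binding of heparan sulfate was not checked for each gene of that list. Igf2, a growth factor, stood at 97.8 ± 16.9 CPM in Lmna HOM and 209.6 ± 31.9 CPM in Lmna WT libraries (log2 fold change -1.10, SE 0.16). The annotated gene Gm49394 shares 62.8% of the exonic length of Igf2 on the same strand but was not among the genes counted. It therefore took no reads from Igf2, and any transcript of it there would be counted as Igf2. Wnt5a, a Wnt of mesenchymal cells, was at 1.42 CPM in Lmna HOM and 6.90 CPM in Lmna WT libraries (log2 fold change -2.24, SE 0.32), and Ptn, or pleiotrophin, at 10.02 CPM in Lmna HOM and 22.0 CPM in Lmna WT libraries (log2 fold change -1.13, SE 0.20). Itga5, the fibronectin receptor subunit, rose at 1.44 (SE 0.23, edgeR adjusted p = 0.0029). Of the genes named from the 10 lists, Dnm2 lost its call in 7 of the 14 alternatives, Chsy1 in 4, Dse and Pcsk5 in 3 each, Papss2 and Pgap1 in 2 each and Mmp15 in 1. The number of ligands and receptors that fell was 14 without Lmna HOM replicate 2 and 5 without Lmna HOM replicate 1, without any 1 Lmna WT replicate, or with a term for Y-linked reads.

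**Figure D4:**
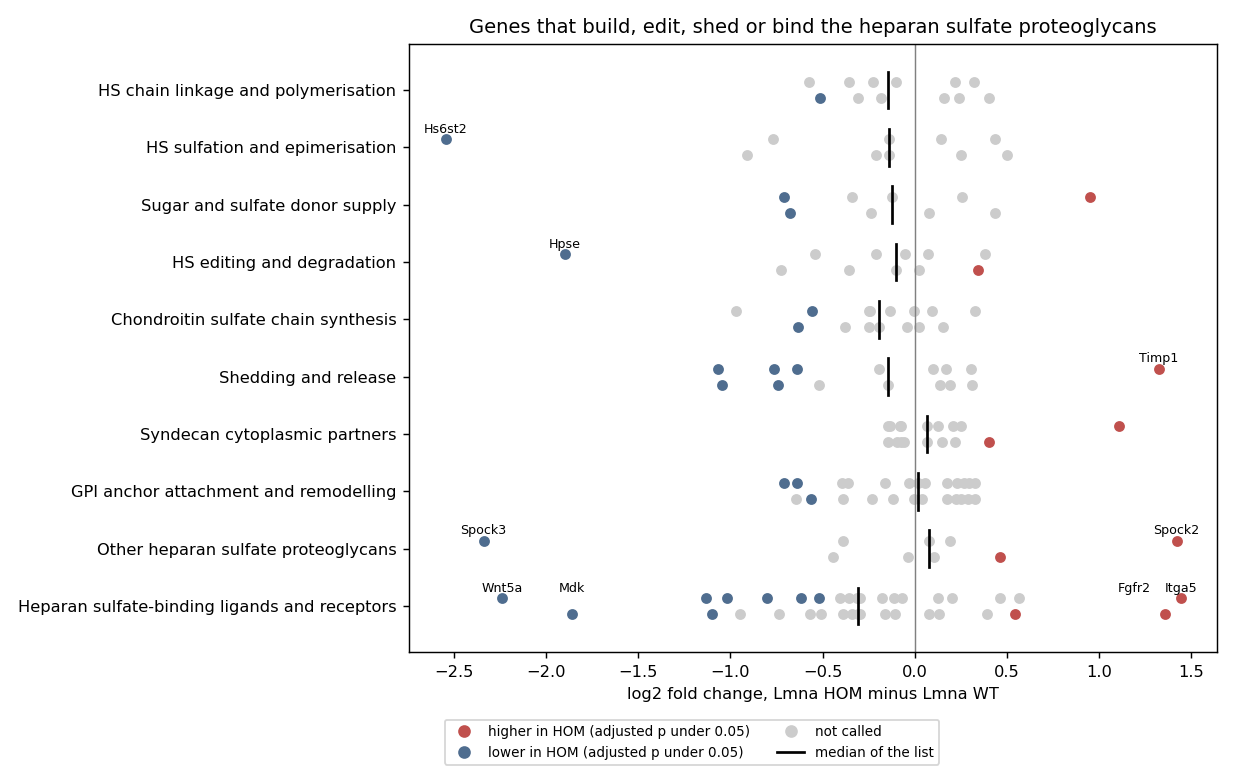
Log2 fold change (x axis, Lmna HOM minus Lmna WT) of each tested gene in the 10 lists; HS stands for heparan sulfate. Red points rose and blue points fell at an adjusted p under 0.05, grey points were not called, and black bars are list medians, which lie between -0.31 and 0.08. Called genes beyond 1.2 in size are named, from Hs6st2 at -2.54 to Itga5 at 1.44.

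Markers of cell types that the sort could hold also differed between the genotypes, and their part in the changes of the members was not tested. The summed level of 14 satellite cell markers was 1007 to 2055 CPM in Lmna HOM and 2509 to 2613 CPM in Lmna WT libraries, with 9 lower and 0 higher. That of 10 markers of fibro-adipogenic progenitors, the mesenchymal cells of muscle, was 1501 to 2324 CPM in Lmna HOM and 4571 to 4865 CPM in Lmna WT libraries, with 6 of 10 lower and 1 higher. Within that list Pdgfra, the receptor that defines those cells, rose, at 103 to 170.4 CPM in Lmna HOM and 54.2 to 97.1 CPM in Lmna WT libraries, while Col3a1 fell. In each of these lists Lmna HOM replicate 2 was the Lmna HOM library nearest to Lmna WT, as it was for Sdc1, Sdc2, Gpc1, Gpc3 and Gpc4, but not for Sdc3 or Gpc6. For Sdc4 it was the highest Lmna HOM library, within the Lmna WT range. This trait of the library was not particular to these genes. It was also nearest for the summed tendon and erythroid markers, but not for adipocyte markers. Without it 4002 genes were called over all genes tested, against 2980 with all libraries.

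Markers of pericytes and smooth muscle had the highest summed CPM, at 12673 to 13472 CPM in Lmna HOM and 11548 to 16356 CPM in Lmna WT libraries. Of these 10 markers 3 were higher and 1 lower, and their sum lay above that of the satellite cell markers in every library. The lists differ in their genes and exonic lengths, so sums of different lists do not compare numbers of cells. Schwann and glial markers summed to 3288 to 4299.8 CPM in Lmna HOM and 3943 to 5004 CPM in Lmna WT libraries, with 3 of 8 higher and 3 lower. Adipocyte markers summed to 432 to 1002 CPM in Lmna HOM and 180.3 to 293 CPM in Lmna WT libraries, with 4 of 4 tested higher. Tendon markers summed to 70.6 to 194 CPM in Lmna HOM and 183 to 209 CPM in Lmna WT libraries (2 of 6 lower), and erythroid markers to 215 to 878 CPM in Lmna HOM and 889 to 1579 CPM in Lmna WT libraries (3 of 6 lower). Endothelial markers overlapped between the genotypes, at 339 to 674 CPM in Lmna HOM and 447 to 730.4 CPM in Lmna WT libraries, with 0 of 8 called by edgeR. Macrophage markers were low, at 33.2 to 52.0 CPM in Lmna HOM and 32.8 to 57.0 CPM in Lmna WT libraries (1 of 7 higher), as were those of muscle fibres, at 31.9 to 55.3 CPM in Lmna HOM and 45.2 to 68.3 CPM in Lmna WT libraries (2 of 7 lower). Epithelial markers summed to 19.2 to 28.2 CPM in Lmna HOM and 27.7 to 37.6 CPM in Lmna WT libraries, mostly from Cdh1, the 1 marker tested there, which fell. B and plasma cell markers summed to 1.81 to 7.82 CPM in Lmna HOM and 7.61 to 46.8 CPM in Lmna WT libraries, where the 1 marker tested, Ighm, fell.

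**Figure D5:**
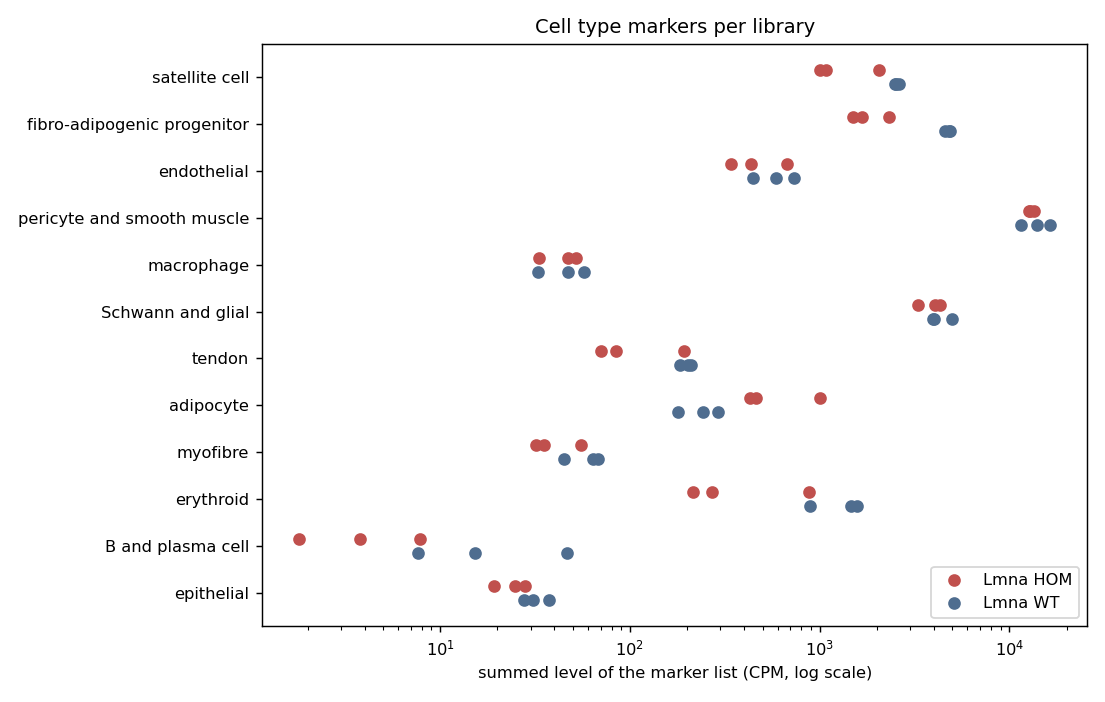
Summed level of each cell type marker list per library (x axis, CPM on a log scale), with Lmna HOM libraries in red above Lmna WT libraries in blue. Satellite cell and fibro-adipogenic markers are lower in each Lmna HOM library than in any Lmna WT library, adipocyte markers higher, and endothelial markers overlap.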

How the data were processed

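Each library's deposited file holds unnormalised counts for Ensembl identifiers. Its last lines, for reads given to no gene (45.0 to 49.8% of the reads in a file), were left out. The kit removed ribosomal RNA and kept strand, per the labels' protocols. Per the submitters' processing notes the software was Trimmomatic 0.32, STAR 2.5.2b and HTSeq 0.6.1, with mm10. Symbols, positions and exonic lengths are from GENCODE M21 (GRCm38), which matched 38861 of 39059 identifiers.

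The main test was that of edgeR 4.0.16 under R 4.3.3 (filterByExpr with minimum count 10 and total 15, TMM factors, quasi-likelihood test without covariates, Benjamini-Hochberg adjustment over 14099 genes, threshold 0.05; common biological coefficient of variation 0.162). Standard errors are the log2 fold change over the square root of F. No replicate pair agreed within sampling noise (chi-square per gene 9.16 to 25.1). On simulated counts for 13912 genes 84% of the 2-fold changes and 100% of the 4-fold changes were found, and 4.66% of calls were false. Every simulated gene had the same dispersion, and 100 genes were changed at each size, none from the least expressed. The data differ, with dispersions that vary between genes and 2980 genes called, so these rates are not those of the real test.

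The members, the 10 pathway lists, the 12 marker lists and the tests were chosen with earlier results of these data known. Named genes are the 9 members, up to 4 called genes per pathway list by smallest p (1 such gene is not reported here), and the 3 genes most like Sdc3, Sdc4 and the most abundant glypican; Col18a1 and Spock3 come under this rule, and Gpc5, Pdgfra, Col3a1, Cdh1, Ighm, the keratins, Cd79a and Jchain were named after their values were seen. Alternatives were other scalings and filters, DESeq2 1.42.0, covariates and omitted libraries; TPM scaling of summed levels was added after seeing the data.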

Additional observations from a re-analysis of the deposited data

How the results depend on the processing

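No tested member changed sign in any of the 14 alternatives, and Gpc3 and Gpc6 were called in all of them. The number of members called (7) was 5 to 6 with library totals only, no filter on low counts, DESeq2, the replicate block, the Y-linked term or without the 2 libraries high in Gm42418, and 2 to 6 when 1 library was left out. The count of 1 higher member became 0 under DESeq2, without a filter on low counts, with the replicate block, with the Y-linked term and without the 2 libraries high in Gm42418, and it was 0 to 1 with 1 library left out, where the lower count was 2 to 6. Pathway genes called (34) ranged from 20 to 47 with 1 library left out, with 5 to 13 higher and 15 to 34 lower. They came to 6 higher with the Y-linked term and to 37 lower without the 2 libraries high in Gm42418. Over all genes the Y-linked term left 1932 called and 793 higher, against 2980 and 1363, and leaving out 1 library gave 1576 to 4002 called, 655 to 1764 higher and 881 to 2238 lower. Without 1 library an arm has 2 samples, so fewer samples enter the fit; the cause of the higher counts without Lmna HOM replicate 2 was not tested.

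Whether replicate numbers pair the samples was not settled. Deviations of same-numbered libraries correlated at -0.063, 0.017 and -0.110 over genes. With 3 libraries per genotype such correlations cannot exclude pairing. Lmna HOM replicate 2 and Lmna WT replicate 2 were both high in Gm42418. With the replicate block 5 members were called, 0 of them higher, and 2437 genes in all, against 7 members and 2980 genes in the main fit. On plain CPM in place of the level per length, the difference in the share of Sdc3 among syndecans was 2.46 percentage points (1.15 per length) and that of Gpc4 among glypicans 1.65 (2.72 per length). TPM scaling, chosen after seeing the data, gave a change of the summed family level of -29.8% (-21.7% on TMM-scaled totals). Depth and the same-strand exonic overlap with Gm43720 both limit Gpc2, whose level could not be compared.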
